A study of Drosophila melanogaster with 3 samples.

Results

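The proteasome subunit genes are described here in a map of CG12942 binding in the fly embryo. The members are the protein-coding genes of the Ensembl BDGP6 annotation whose symbol starts with Prosalpha, Prosbeta, Rpn and a digit, or Rpt and a digit. They number 48 of 13945 protein-coding genes annotated on the chromosome arms 2L, 2R, 3L, 3R, 4 and X. By symbol, 25 belong to the core particle and 23 to the regulatory particle. A symbol ending in T or R, with or without a digit after it, marks 16 of the 48 as paralogues, 11 of the core and 5 of the regulatory particle, and leaves 32 main genes.

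The study is a chromatin immunoprecipitation followed by sequencing (ChIP-seq) of whole Drosophila melanogaster embryos of strain CG12942-GFP, 0 to 24 hours old and of both sexes. All embryos carried a stable transgene with green fluorescent protein at the C terminus of CG12942, and an antibody against that protein was used for the precipitation. The samples form 1 group of 3 biological replicates from different biosamples of the same line, with no second condition, so the comparisons set genes against genes. An embryo collection of this span mixes tissues and stages, and binding in a few cells cannot be told apart from weak binding in many.

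The proteasome degrades proteins that carry ubiquitin chains. Its core particle is a barrel of stacked rings, in which the outer alpha subunits form the gate and the inner beta subunits hold the proteolytic sites. The regulatory particle caps the barrel. Its lid removes ubiquitin, and its base binds ubiquitin chains and unfolds the substrate with a ring of AAA+ ATPases, the Rpt subunits. Many fly subunits have a second gene copy, and several of these copies, such as Prosalpha3T and Prosalpha6T, are known for expression in the male germline.

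A gene was called bound where the summit of a peak in the authors' optimal list lay within 500 bp of one of its transcription start sites (TSSs). The optimal list holds 3844 peaks, and each of them was also found, with the same start and summit, among the 3844 strongest of the authors' 27271 pooled peaks. The optimal list is thus the top of the pooled list by signal, the authors' measure of peak strength. The relaxed lists of replicates 1, 2 and 3 hold 30000, 30000 and 27870 peaks and include background. Read totals are unknown, and signals were ranked only within a list.

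CG12942 peaks lay at the promoters of 9 proteasome genes, Rpn5, Rpn3, Rpn6, Rpt5, Rpn11, Rpt2, Prosbeta1, Prosalpha4 and Rpn2. All 9 are main genes, and 7 belong to the regulatory particle. The share of bound members was 18.8%, against 19.2% of all protein-coding genes. In the 3844 strongest peaks of replicates 1, 2 and 3 there were 6, 11 and 9 members, a mean of 18.1% ± 5.24 (SD, n = 3). All genes stood at 18.6%, 19.2% and 18.8% in those lists. The difference from all genes was smaller than the spread between replicates. With the peaks shared by the 3844 strongest of a pair of replicates in place of the optimal list, the bound members numbered 6 without replicate 1, 5 without replicate 2 and 5 without replicate 3. Rpn5, Rpn3, Rpn6 and Rpt5 were among them each time, and the 5 without replicate 3 included Prosalpha7, which is not among the 9. These counts were 12.5%, 10.4% and 10.4% of the members, against 15.8%, 14.5% and 14.7% of all genes. The bound members farthest from their summit were Prosalpha4 at 305 bp and Rpn5 at 293 bp, and the nearest optimal summit of any other member lay 1115 bp from Prosbeta6 and 1719 bp from Rpn12.

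The DNA under the summits that carry this result is shown for 6 of the bound genes, as dm6 sequence 5′ to 3′ on the strand of the proteasome gene. The stretches reach up to 50 bp to each side of the summit, were limited to bases outside exons, and hold the summit except at Rpn3, where they end at the TSS. Capitals mark TATAAA on either strand. The Rpn5 and Prosalpha4 stretches lie in an intron of the neighbouring gene, Hat1 and kat80, and the others lie between genes.
Rpn5, chr3R:5789150-5789250, plus strand: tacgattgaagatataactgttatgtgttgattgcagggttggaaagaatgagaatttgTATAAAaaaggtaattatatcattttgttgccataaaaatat
Rpn3, chr2L:19051757-19051789, plus strand: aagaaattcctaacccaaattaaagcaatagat
Rpt5, chr3R:23752835-23752875, plus strand: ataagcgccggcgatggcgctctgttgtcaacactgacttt
Rpn11, chr2L:5059866-5059966, minus strand: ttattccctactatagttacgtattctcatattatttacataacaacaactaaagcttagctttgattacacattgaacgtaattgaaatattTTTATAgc
Prosalpha4, chrX:16275918-16276015, plus strand: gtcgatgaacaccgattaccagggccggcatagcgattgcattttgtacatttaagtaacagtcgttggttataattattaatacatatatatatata
Rpn2, chr3R:29153355-29153455, plus strand: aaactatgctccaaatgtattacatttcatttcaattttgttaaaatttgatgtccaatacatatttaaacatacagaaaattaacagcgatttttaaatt

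The printed Rpt5 stretch was 53.7% GC, and the other 5 were lower, from 21.8% at Rpn2 to 33.7% at Prosalpha4. Over 50 bp on each side of the 9 summits the median GC content was 28.7%, with a lowest value of 21.8% at Rpn2 and a highest of 45.5% at Rpt5. The median was 33.7% at all 2008 optimal summits within 500 bp of a TSS. It was 36.6% in windows of the same size centred 106 bp upstream of the TSS in 13944 promoters, the median position of those summits.

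The lid had 4 bound genes among its 8 main genes (50%, against 19.2% of all genes), Rpn3, Rpn5, Rpn6 and Rpn11, and it held the 3 strongest proteasome peaks. Of the 8, 6 share their promoter region with a gene that starts within 500 bp on the opposite strand. Among all genes with such a neighbour 40.2% were bound, and 3 of these 6 were. The 3844 strongest peaks of replicates 1, 2 and 3 held 3, 5 and 5 of the 8 main lid genes (54.2% ± 14.4, SD, n = 3). All 8 had a peak of some strength in the pooled list, against 51% of all genes and 76.1% of those with such a neighbour. Their median signal was 80.24, against 57.59 for all genes with a pooled peak.

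Rpn5 (FBgn0028690), which encodes a scaffold subunit of the lid, had the strongest peak of the family (dm6 3R, 5789067 to 5789301, optimal signal 264.5). It ranked 474 of 3844 in the optimal list, and 821, 395 and 382 in replicates 1, 2 and 3. The replicate signals were 73.97, 86.94 and 104.2. The nearest Rpn5 start lay 293 bp from the summit, while a start of Hat1, a histone acetyltransferase gene transcribed the other way, lay 126 bp from it.

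Rpn3 (FBgn0261396), another lid scaffold subunit, had the second strongest peak (2L, 19051723 to 19051915, signal 243.9, rank 571). Its ranks were 668, 481 and 622, and its signals 82.6, 79.59 and 81.68. The summit lay 17 bp downstream of an Rpn3 TSS, in the 5′ UTR, and 195 bp from the start of l(2)37Bb on the opposite strand. In the 1 kb around the Rpn3 TSS, 89.3% of 31-base words were unique in the genome, against a median of 100% for all genes.

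Rpn5 and Rpn3 could not be ordered, since their mean percentiles over the replicate lists were 98.2 ± 0.803 and 97.98 ± 0.361 (SD, n = 3 each). Both stood apart from the other 7 bound genes, whose best rank in any replicate was 1446.

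Rpn6 and Rpn11 were the other bound lid genes. Rpn6, a lid scaffold gene (2R, 14752183 to 14752586, signal 108.8), ranked 1986, 3434 and 2419 in the replicates, with signals of 46.73, 25.67 and 37.18. Its summit lay 114 bp upstream of an internal Rpn6 TSS and 136 bp from the start of ave, an adaptor gene of Ras signalling, and with canonical starts alone Rpn6 was not bound. Rpn11 encodes the metalloprotease that removes ubiquitin from substrates (2L, 5059714 to 5060117, signal 95.82). It ranked 4549, 1964 and 2442, with signals of 28.81, 37.32 and 36.93, so replicate 1 ranked it lowest. Its summit lay 126 bp upstream of the TSS, and it was the single bound member with no other protein-coding gene starting within 500 bp of the summit.

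The 4 main lid genes that were not bound had weaker pooled peaks, with signals of 64.66 at Rpn8, 47.29 at Rpn7, 33.78 at Rpn9 and 33.26 at Rpn12. Rpn8 is the inactive partner of Rpn11, and the others are scaffold subunits. Rpn7 was among the 3844 strongest peaks in replicate 3 and Rpn8 in replicate 2.

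In the base, 3 of 10 main genes were bound, where 19.2% of all genes were. At all 3 a gene starts within 500 bp on the opposite strand. Of the main base genes with such a neighbour, 2 of 4 ATPase genes and 1 of 2 others were bound, against 40.2% of all genes with one. The 3 bound genes were the ATPase genes Rpt2 and Rpt5, and Rpn2, a large scaffold subunit. Rpt5 (3R, 23752667 to 23753070, signal 102) varied least in rank among these, with ranks of 2965, 3076 and 3430 and signals of 37.46, 27.67 and 29.23. Its summit lay 7 bp upstream of the Rpt5 TSS and 35 bp from that of RanBP3, a Ran-binding protein gene on the opposite strand. Rpt2 (3R, 23931328 to 23931731, signal 87.01) ranked 3456, 5168 and 3797, with signals of 34.21, 19.63 and 27.01, and its summit lay 28 bp downstream of the TSS in the 5′ UTR. CG13599 starts 109 bp from it.

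Rpn2 (3R, 29153203 to 29153606, signal 79.79) was the weakest bound member. It ranked 3781 of 3844, and 4203, 2867 and 3490 in the replicates, with signals of 30.23, 28.94 and 28.83. Its summit lay between Rpn2 and Slbp, the gene of the histone mRNA stem-loop binding protein, 119 bp from the first and 139 bp from the second. The lowest signal in the optimal list was 78.89, so Rpn2 lay just inside it.

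The other base genes lay below that limit. Among the ATPases the pooled signal was 45.3 at Rpt1, 38.77 at Rpt3 and 25.79 at Rpt4, and Rpt6 had no peak in any list. The ubiquitin receptor genes Rpn13, Rpn10 and Rpn1 had pooled signals of 68.25, 53.96 and 57.57. Rpn13 was among the 3844 strongest in replicate 2 alone.

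In the core particle 2 of 14 main genes were bound (14.3%, against 19.2% of all genes), Prosalpha4 in the alpha ring and Prosbeta1 in the beta ring. Both are among 9 main core genes with a gene starting within 500 bp on the opposite strand. Of these 9, 22.2% were bound, against 40.2% of all genes with such a neighbour. Prosalpha4 (X, 16275763 to 16276166, signal 82.85) ranked 5098, 4467 and 2348, with signals of 26.8, 21.51 and 37.81, so that replicate 3 alone put it in its 3844 strongest. Its summit lay 305 bp upstream of Prosalpha4 in an intron of kat80, a gene of the microtubule-severing katanin complex, and 48 bp from a kat80 start. Prosbeta1, the gene of the caspase-like catalytic subunit (2R, 16014627 to 16015030, signal 83.23), varied most among the 9. It ranked 11219, 1446 and 6117, with signals of 16.13, 44.8 and 18.66, and a mean percentile of 78.61 ± 16.3 (SD, n = 3). Its summit lay 42 bp upstream of Prosbeta1 and 79 bp from Rrp42, an exosome subunit gene. Each of the 2 bound core genes was thus among the 3844 strongest of 1 replicate alone.

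The unbound alpha genes had pooled signals of 75.69 at Prosalpha7, 62.25 at Prosalpha5, 56.3 at Prosalpha3, 54.76 at Prosalpha2 and 39.97 at Prosalpha6. Prosalpha7 was the member just outside the optimal list, and it was among the 3844 strongest in replicates 1 and 2. The unbound beta genes were weaker, from 38.15 at Prosbeta5, the gene of the chymotrypsin-like subunit, through 30.26 at Prosbeta4, 30.14 at Prosbeta6 and 29.57 at Prosbeta2, the gene of the trypsin-like subunit, to 22.61 at Prosbeta3. Prosalpha1 and Prosbeta7 had no peak in any list. The median pooled signal of the main genes with a peak was 59.27 in the alpha ring and 30.2 in the beta ring.

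**Figure D1:**
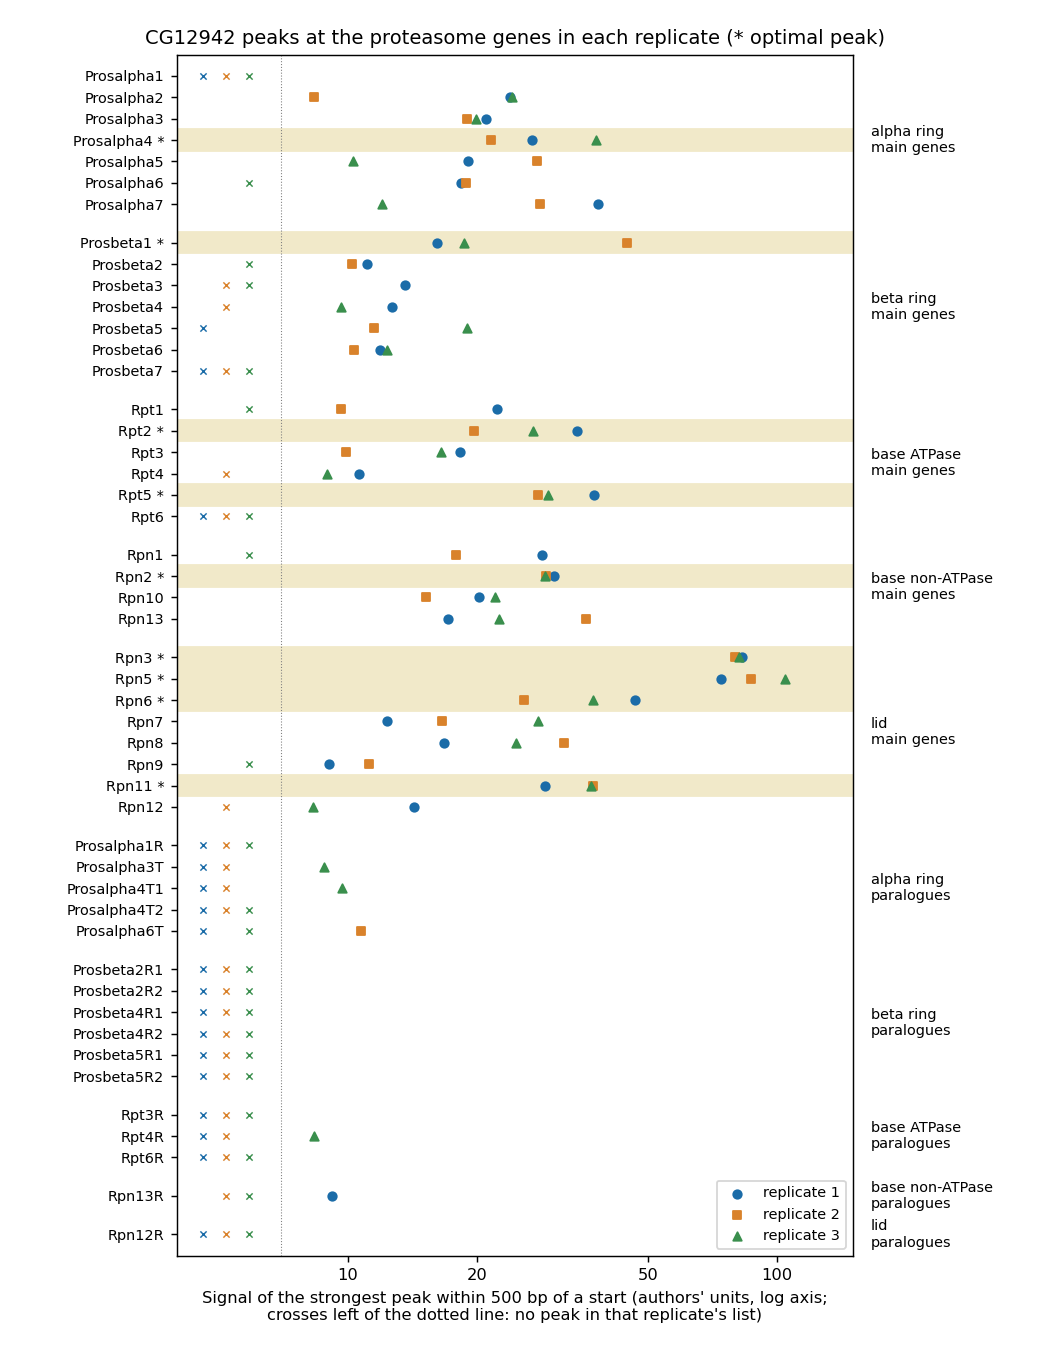
Each row is a proteasome gene and each symbol the signal, on a log axis, of its strongest peak within 500 bp of a start in replicate 1, 2 or 3, while crosses mark no peak and each replicate's list has its own signal scale. Shaded rows are the 9 bound genes, Rpn3 and Rpn5 stand apart to the right, and the 16 paralogues have at most 1 weak peak each.

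The core particle had fewer bound genes than the regulatory particle, 2 of 25 (8%) against 7 of 23 (30.4%). Among the strongest peaks of each replicate the counts were 1, 3 and 1 core genes and 5, 8 and 8 regulatory genes, or 6.67% ± 4.62 and 30.4% ± 7.53 (SD, n = 3 each). The 2 sets of replicate shares did not overlap. The difference was -22.4 percentage points in the optimal list, -13.4 without replicate 3 (1 core and 4 regulatory genes) and -8.7 in the strongest 1922 optimal peaks. The core gene without replicate 3 was Prosalpha7, which is not bound in the optimal list. The bound core genes Prosalpha4 and Prosbeta1 were in none of the lists that left out a replicate. All genes stood at 19.2% in the optimal list and at 18.6%, 19.2% and 18.8% in the replicates, and genes with an opposite gene starting within 500 bp at 40.2% in the optimal list. The core particle also holds more paralogues. Among main genes alone the counts were 2 of 14 in the core and 7 of 18 in the regulatory particle, with replicate means of 11.9% ± 8.25 and 38.9% ± 9.62 (SD, n = 3 each). The members were chosen with earlier results in view and share promoters with their neighbours, so no test was made over genes.

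**Figure D2:**
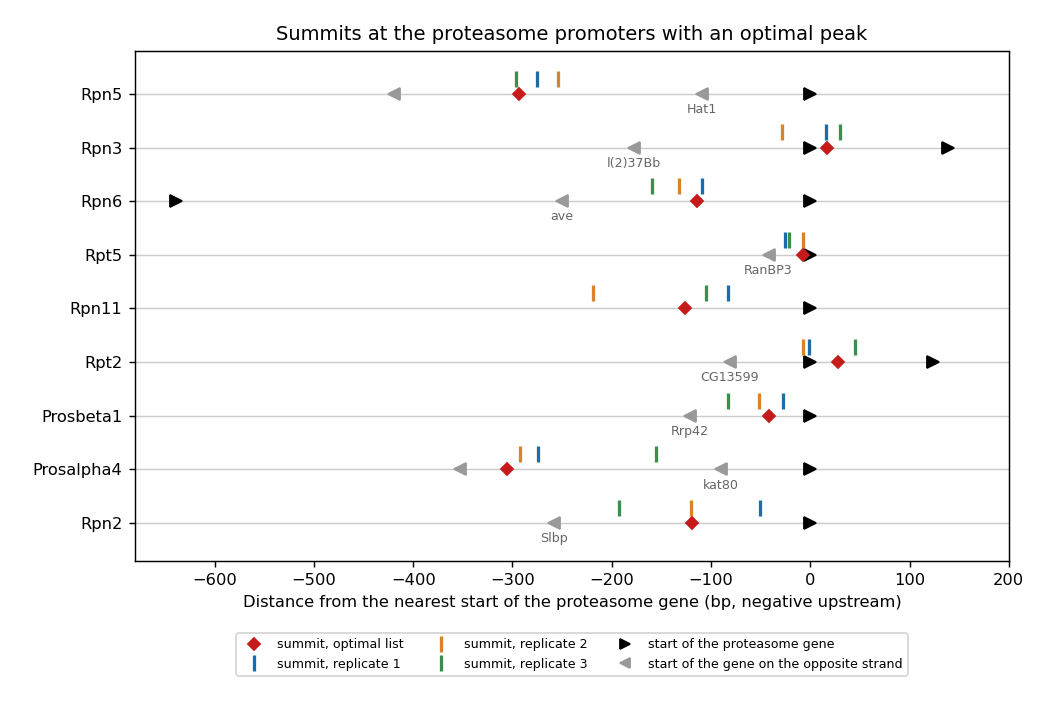
Positions along the promoters of the 9 bound genes are in bp from the nearest start of the proteasome gene, negative upstream. Diamonds are optimal summits, ticks the matched summits of the replicates, black arrows starts of the proteasome gene and grey arrows starts of the opposite gene, and at Rpn5 and Prosalpha4 the summits lie 293 and 305 bp upstream, between 2 starts of the neighbour.

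**Figure D3:**
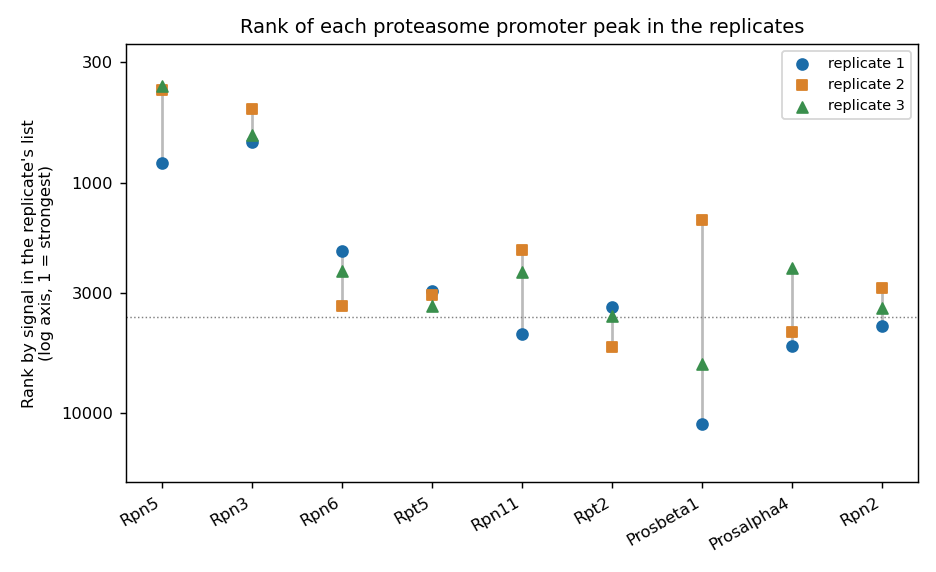
The rank by signal of each bound gene's peak in replicates 1, 2 and 3 is drawn on a log axis with the strongest at the top, and the dotted line marks rank 3844. Rpn5, Rpn3, Rpn6 and Rpt5 lie above the line in all 3 replicates, and Prosbeta1 spans ranks 1446 to 11219.

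Most matched replicate summits lay near the optimal summit, but matching itself required a distance of no more than 200 bp. The optimal summits are also those of pooled peaks, called on the same 3 alignments. Closeness to them is therefore not independent agreement between replicates. The offsets were not set against those at all optimal promoter summits. Of 27 matched replicate summits, 23 lay within 50 bp of the optimal summit and 26 within 100 bp, and the largest offset was 150 bp, at Prosalpha4 in replicate 3. At 4 genes, Rpn5, Rpn3, Rpn6 and Rpt5, the optimal peak was matched within 200 bp in the 3844 strongest of all 3 replicates.

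The bound proteasome peaks were mostly weak ones. The median optimal signal at the 9 was 95.82, at percentile 25.2 of the optimal list. The 2008 optimal peaks within 500 bp of a TSS had a median signal of 133.7, at percentile 55.0. Taken by gene, the best optimal peak of the 2674 genes with one had a median signal of 143. Rpn5 and Rpn3, at percentiles 87.68 and 85.16, were the members above both medians.

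Nearly all main proteasome promoters had a pooled peak, 9 of them in the optimal list and 20 below it. In the whole pooled list 29 of 32 main genes (90.6%) had a peak within 500 bp, against 51% of all protein-coding genes, and the 3 without one were Prosalpha1, Prosbeta7 and Rpt6. The replicate lists at full length held 28, 25 and 23 of the 32 (79.2% ± 7.86, SD, n = 3), against 54.1%, 49.7% and 45.5% of all genes. A peak in every replicate list was found at 19 of 32 main genes, and at 33.6% of all genes. These lists include background, so a peak in them is weaker evidence than an optimal one.

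In the 500, 1000 and 2000 strongest pooled peaks the share of main genes (3.12%, 6.25% and 6.25%) lay below that of all genes. At 3844 peaks, the size of the optimal list, it was 28.1%, against 19.2% of all genes. Genes with an opposite gene starting within 500 bp stood at 40.2% there. The 500 strongest pooled peaks reached 1 of 18 regulatory main genes (5.56%), against 3.54% of all genes. The 1000 strongest reached 2 of 18 regulatory main genes (11.1%), against 6.63% of all genes, and no core gene. These counts are near the share of all genes, and all head-to-head genes, which have another gene starting within 500 bp on the opposite strand, stood at 8.3% and 15.6%. The 2000 strongest reached 2 main genes (6.25%), against 11.8% of all genes. The 8000 strongest reached 19 main genes (59.4%), against 31.1% of all genes and 58% of all head-to-head genes. In that longer list the core particle had 6 of 14 main genes and the regulatory particle 13 of 18. In the whole pooled list the particles were closer, with 12 of 14 and 17 of 18. The median pooled signal of the main genes with a peak was 56.3, close to the 57.59 of all genes with one.

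**Figure D4:**
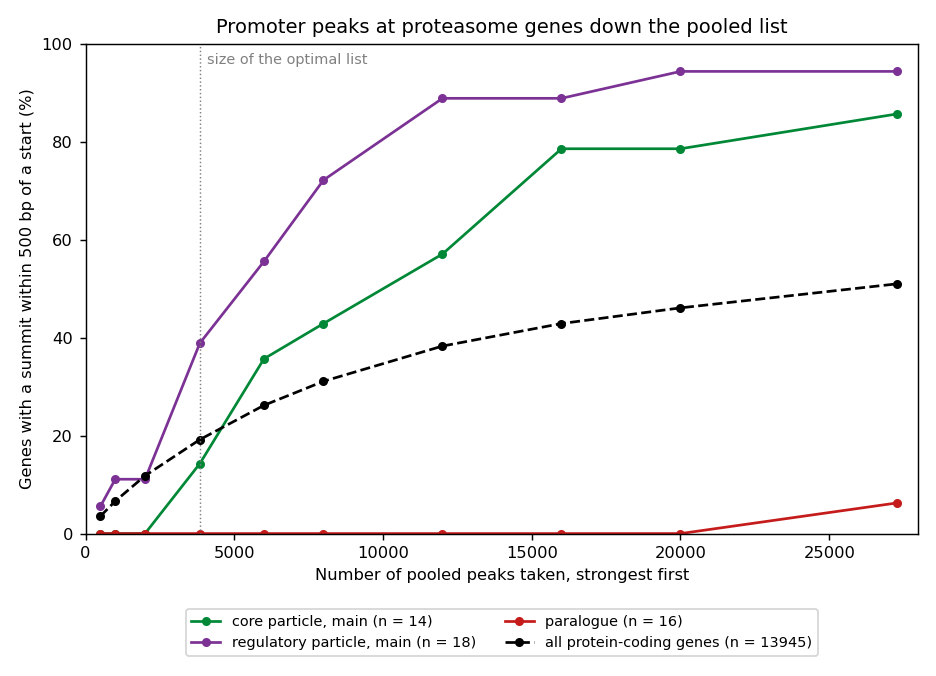
The share of genes with a summit within 500 bp of a start is plotted against the number of pooled peaks taken, strongest first, for core and regulatory main genes, paralogues and all protein-coding genes, with a dotted line at the size of the optimal list. Up to 2000 peaks each proteasome line rests on 2 genes or fewer, and at 8000 peaks 42.9% of core and 72.2% of regulatory main genes have one, against 31.1% of all genes.

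The summits at main genes lay mostly upstream, which is not particular to them. All optimal promoter summits had a median position 106 bp upstream of the TSS. The share upstream was not computed for all genes with a pooled peak. Of the 29 main genes with a pooled peak, 20 were head-to-head, where a summit between the starts of both genes can be upstream of each. Of the 29 strongest pooled summits, 1 for each main gene with a peak, 23 were upstream of the nearest TSS, 5 were downstream and the other lay on it, with a median position 57 bp upstream.

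None of the paralogues was bound, and few had a peak of any strength. Of the 32 main genes 9 were bound, against 0 of the 16 paralogues, where 19.2% of all genes were. The difference was 28.1 percentage points, 15.6 without replicate 2 or 3, and 12.5 with optimal peaks matched in all 3 replicates. It was 6.25 in the strongest 1922. Of the paralogues 13 have no opposite gene starting within 500 bp, and 11.1% of all such genes were bound. In the 3844 strongest peaks of replicates 1, 2 and 3 there were 6, 11 and 9 main genes (27.1% ± 7.86, SD, n = 3) and 0, 0 and 0 paralogues. The pooled list held 1 paralogue, Rpt6R, with a signal of 21.96 near the lowest in that list, 19.2. Its main counterpart Rpt6 had no peak. In the full replicate lists 1, 1 and 3 paralogues had a peak (10.4% ± 7.22, SD, n = 3), none of them in more than 1 replicate. The signals were 9.20 at Rpn13R in replicate 1, 10.7 at Prosalpha6T in replicate 2, and 8.81, 9.69 and 8.33 at Prosalpha3T, Prosalpha4T1 and Rpt4R in replicate 3. The lowest signals in those lists were 8.472, 7.828 and 8.108 in replicates 1, 2 and 3. In all, 11 of the 16 had no peak in any replicate, against 32.3% of all genes. The replicate lists gave no peak at any of the 6 beta paralogues, Prosbeta2R1, Prosbeta2R2, Prosbeta4R1, Prosbeta4R2, Prosbeta5R1 and Prosbeta5R2. Prosalpha1R, Prosalpha4T2, Rpt3R, Rpt6R and Rpn12R had none in them either.

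A missing peak could not be read at every locus. In the 1 kb around the TSS of Prosalpha1 and of Prosalpha1R, 0% of 31-base words were unique in the genome, and the 2 windows shared 98.2% of their words. A read of that length from these windows cannot be placed on one copy or the other, and how such reads were treated is not stated. The other 15 paralogues, and Prosbeta7 and Rpt6, had 95.3% or more unique words.

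Promoter arrangement differed between main genes and paralogues, and its part in these counts was not tested. A gene was called head-to-head where another protein-coding gene starts within 500 bp on the opposite strand. Among main genes 21 of 32 were head-to-head, and 8 of the 21 were bound (38.1%), against 40.2% of all 3878 head-to-head genes. Of the 11 main genes without such a neighbour 1 was bound, Rpn11 (9.09%), against 11.1% of all such genes. Within each arrangement the share of main proteasome genes lay close to that of all genes. Among paralogues 3 of 16 were head-to-head, Prosalpha1R, Prosbeta2R2 and Rpt3R, and none was bound.

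With every pooled peak counted, 20 of the 21 head-to-head main genes (95.2%) had one, against 76.1% of all head-to-head genes. Among those without a partner 9 of 11 main genes (81.8%) had one, against 41.3% of all such genes. Among head-to-head main genes 2 of 9 in the core and 6 of 12 in the regulatory particle were bound, and among the others 0 of 5 and 1 of 6. A summit between 2 starts counts for both genes, and at Rpn5 and Prosalpha4 the nearest start was the neighbour's.

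The share of bound summits with a known promoter motif lay close to that of all promoter summits. Of 13 motifs searched on both strands within 50 bp, 1 or more occurred at 5 of the 9 bound summits (55.6%), at 57.7% of all optimal promoter summits and in 54.9% of all promoters. The DNA replication-related element TATCGATA, bound by DREF, occurred at Rpt5 alone. It occurred at 3.39% of all optimal promoter summits and in 2.03% of all promoters. Within 100 bp it was also found at Rpn3 and Prosbeta1, and then at 7.82% of all optimal promoter summits and in 6.59% of all promoters. CGATA, the core bound by the insulator protein BEAF-32, which the longer element contains, occurred at Rpn6 and Rpt5 (23.4% of optimal promoter summits, 19.1% of promoters). TTATCG, which can overlap both, occurred at the same 2 genes (7.32% and 7.90%). TATAAA occurred at Rpn5, Rpn6, Rpn11 and Rpt2 (21.3% and 17.8%).

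None of the other 9 motifs occurred at the 9 summits. They were the motif 1 core GGTCACAC (in 1.69% of optimal promoter summits and 1.18% of promoters), part of motif 6, GTATTTT (6.77% and 6.11%), the GAGA factor motif GAGAG (8.17% and 13.9%) and the E-boxes CAGCTG (5.13% and 4.96%), CACGTG (1.29% and 1.05%) and CACATG (4.08% and 3.34%). The antioxidant response element core TGACNNNGC, through which cnc acts on proteasome genes, occurred at 2.49% of optimal promoter summits and in 2.42% of promoters. The remaining 2, AGGTGGCGC of CTCF (0.299% and 0.122%) and the heat shock type GAACGTTC (0.0996% and 0.0717%), were the rarest.

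Among genes that act with the proteasome, promoter peaks were found in the supply of ubiquitin, in its attachment, in p97 and in the COP9 signalosome. Of a list of 44 such genes, 20 were bound (45.5%), against 19.2% of all protein-coding genes, and the 3844 strongest peaks of replicates 1, 2 and 3 held 18, 22 and 19 of them. A pooled peak of any strength was found at 38 of the 44, against 51% of all genes. The list mixes head-to-head genes with others, of which 40.2% and 11.1% were bound among all genes, and the 19.2% does not allow for this. It was drawn up with other results of these data known, and it was not tested.

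Ubiquitin supply and attachment made up 7 of the 20. Ubi-p63E, a polyubiquitin gene, had an optimal signal of 176.9, RpS27A, which encodes a ubiquitin and ribosomal protein fusion, 139.2, and Uba1, the ubiquitin-activating enzyme gene, 80.84. Of 10 conjugating enzyme genes 4 were bound (40%, against 19.2% of all genes), ben (200), eff (131.2), Ubc6 (120) and vih (82.84). Each of the 7 was stronger than Rpn2, as nearly all optimal peaks were, and ben was weaker than Rpn3 and Rpn5.

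Genes for proteasome assembly and accessory proteins gave 3 of 7 (42.9%, against 19.2% of all genes). These were Pomp, the core maturation factor gene (signal 177.3), ntc, an F-box protein gene (180.4), and Uch-L5, which encodes a deubiquitinase of the regulatory particle (115). Of 5 genes for p97, the AAA+ ATPase that extracts ubiquitinated proteins, and its cofactors, 3 were bound (60%, against 19.2% of all genes). They were TER94 (90.38), p47 (114) and Plap (143). None of the 3 shuttle genes Rad23, Ubqn and rngo was bound.

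Among the 5 regulators of proteasome gene transcription, 3 were bound (60%, against 19.2% of all genes). These were cnc, the fly member of the Nrf family (87.52), Keap1, its inhibitor (137.7), and Pngl, an N-glycanase (117.1). The COP9 signalosome, a complex built like the lid that removes Nedd8 from cullins, had 4 of 9 bound genes. They were alien, which encodes CSN2 (212.5, the strongest of the list), CSN4 (105.4), CSN5 (92.91) and CSN3 (88.65). The 4 are 44.4% of the signalosome genes, against 19.2% of all genes. All 4 are head-to-head genes, as are CSN1b and CSN8, which were not bound. Among all head-to-head genes 40.2% were bound.

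**Figure D5:**
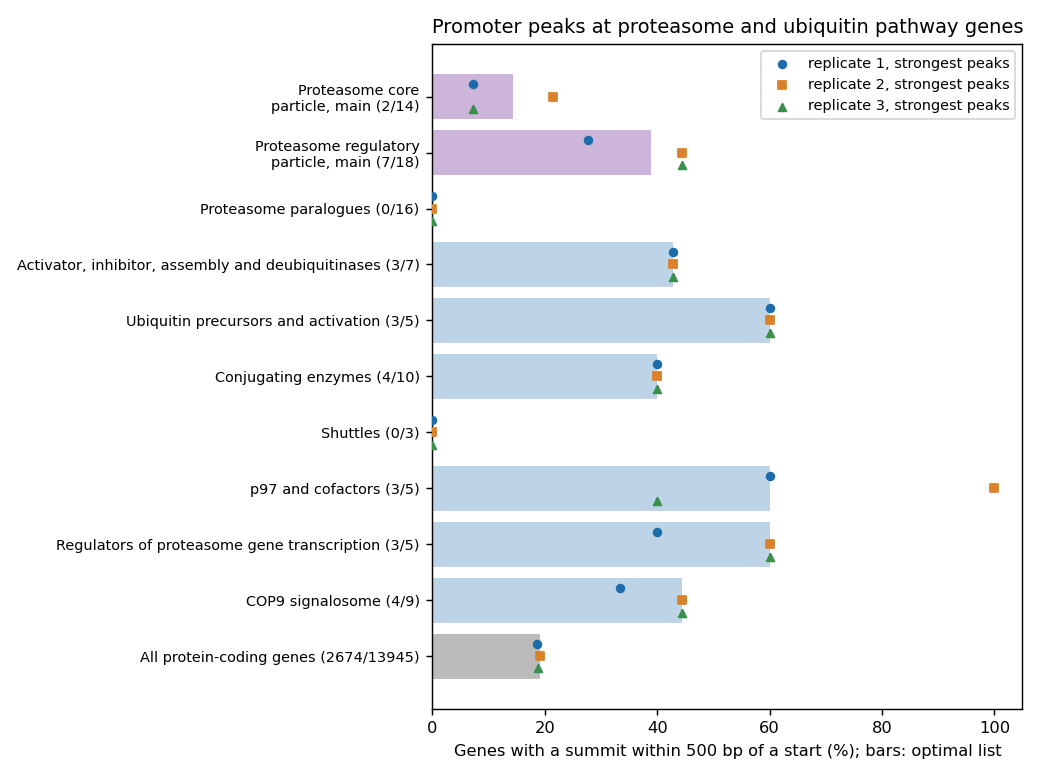
Bars give the percentage of genes in each group with an optimal summit within 500 bp of a start, with counts beside the names, and symbols the percentage with one in the 3844 strongest peaks of each replicate. The bar for all protein-coding genes stands at 19.2%, the core main genes lie below it at 14.3%, the paralogues and shuttles at 0%, and the other groups above it.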

How the data were processed

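ChIP-seq with 3 biological replicates is represented by narrowPeak lists deposited by the authors on dm6. Per the file listings deposited with the samples, each replicate list came from 1 alignment set against a control alignment. The pooled list came from all 3 alignments, and the optimal list was derived from the others. Aligner, peak caller and versions: not given in the sources used here. Signal values deposited by the authors have no stated scale and were used only within a list. Lists on dm3 were not used here.

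Summits were set against TSSs of protein-coding transcripts in Ensembl release 115, with a window of 500 bp, and the peaks used all ended within the length of their arm. Summits within 200 bp were called matched. The members, the list of 44 related genes (3 matched by synonym) and the 13 motifs were chosen with earlier results of these data known. Every bound gene was named, and each unbound member was named with its best pooled or replicate peak. Counts are descriptive and no test was made. The counting was tested on simulated summits. Settings are varied in the closing section. Python 3.11.15, numpy 2.4.6, pandas 2.3.3 and matplotlib 3.10.9 were used.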

Additional observations from a re-analysis of the deposited data

How the results depend on the processing

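The 9 bound members, of which Rpn5, Rpn3, Rpn6 and Rpt5 were the most repeatable across the replicates, depended mainly on how deep a list was read. Not all 4 held in every setting. Rpn5 and Prosalpha4 were lost with a window of 250 bp, and also with a summit counted for the nearest gene only. Each of these settings left 7 members (14.6%), against 15.5% and 13.8% of all genes. Rpn6 was lost with canonical starts alone, which left 8 members (16.7%, against 17% of all genes). Among the strongest 1922 optimal peaks there were 2 members, a core minus regulatory difference of -8.7 percentage points (-22.4 in the full list), a main minus paralogue difference of 6.25 (28.1 in the full list), a difference from all genes of -7.24 (-0.425 in the full list) and 9 related genes (20 in the full list). With peaks matched in all replicates 4 members were left (8.33%, against 13.3% of all genes) and the main minus paralogue difference was 12.5. With every pooled peak the values were 30 members, -30.3, 84.4, 11.5 and 38 related genes, so the difference from all genes changed sign, as it did (0.772) with a summit counted for the nearest gene only. The -30.3 includes paralogues: among main genes the particles were closer, 85.7% of the core and 94.4% of the regulatory genes, than in the optimal list, 14.3% and 38.9%. Leaving out a replicate gave 5 to 6 members (5 without replicate 2 or 3), or 10.4% to 12.5%, against 14.5% to 15.8% of all genes. The differences were -26.1 to -13.4 between the particles and 15.6 to 18.8 between main genes and paralogues. A peak then had to be shared by the strongest of both remaining lists. The strength percentile was 90.1 in the replicate lists and 89.5 in the pooled list, against 25.2 in the optimal list, because those lists hold weaker peaks. Motifs searched within 100 bp in place of 50 bp on each side occurred at 9 summits in place of 5, where the share of all promoter summits was 83.4% in place of 57.7%. TATCGATA was then at 3 of the 9 (7.82% of promoter summits), CGATA at 7 (39.4%), TTATCG at 4 (15.6%), TATAAA at 5 (36.5%) and GTATTTT at 1 (14%). The other 42 values moved by no more than the spread between replicates or, for counts, stayed within 1.5 times. Settings for the related genes were added after the data were seen. No paired analysis was possible because there is 1 group of replicates. Unknown depth limits what a missing peak can show.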
